A study of Homo sapiens with 2 samples.

Results

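The genes described here encode nucleolar scaffold proteins and the core proteins of small nucleolar ribonucleoproteins (snoRNPs). They were chosen by symbol, as all transcript models that the abundance table assigns to NPM1, NCL, FBL, NOP56, NOP58, NHP2, NOP10, GAR1 and DKC1. All 9 genes had reads, out of 16645 annotated genes with a read, and together they held 734 of the 237608 transcript models in the table. GM12878 is a human lymphoblastoid line, B cells made immortal with Epstein-Barr virus, and its RNA was read as native strands on Oxford Nanopore MinION flow cells. There was 1 group of 2 replicate libraries, with no treatment and no other cell line, so the replicates could be compared only with each other. Total RNA was column-extracted and depleted (the labels do not say of what), and a reverse transcription step before sequencing opened secondary structure. The labels do not say whether the replicates came from separate cultures, so every test below measures the spread between these libraries, which may be technical.

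The nucleolus is where ribosomal RNA is transcribed, modified and assembled into ribosomal subunits. Box C/D snoRNPs guide ribose methylation of that RNA, and box H/ACA snoRNPs guide the conversion of uridine to pseudouridine; in both, a small RNA picks the target and a protein does the chemistry. In human cells most of these small RNAs are cut out of introns, several of them from the introns of the snoRNP protein genes themselves. Prominent nucleoli are a known feature of proliferating cells such as this line.

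Replicate 1 comprised 1360368 reads and replicate 2 comprised 1510998, so 1 read was worth 0.735 and 0.662 CPM (reads scaled to a library total of 1000000). Reads of the 9 genes numbered 6235 (0.458%) and 5827 (0.386%). Of their 734 models, 36 were known, that is, matched an annotated transcript; 430 rested on a single read and 230 were seen in both libraries. The cell identity was checked with marker genes: 6 of 6 B-cell markers were read (summed level 8941 and 9250 CPM), while ALB, GATA1 and the T-cell marker CD3D were at 0 reads in both libraries, against a floor of 3 reads or 2.21 and 1.99 CPM. The other T-cell marker, CD3E, had 5 and 16 reads (3.68 and 10.6 CPM), and the fibroblast marker COL1A1 had 2 and 3 reads.

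NPM1 stood far above the other members. In direct RNA sequencing each strand gives 1 read whatever its length, so the levels are in CPM and are not divided by length. NPM1, a nucleolar chaperone that shuttles to the cytoplasm and takes part in ribosome assembly, had 3288 and 3067 reads (2417 and 2030 CPM, mean 2223 ± 274, SD, n = 2) and ranked 87 among all annotated genes. NCL, which encodes nucleolin, an RNA-binding protein of ribosomal RNA transcription and processing, had 929 and 851 reads (683 and 563 CPM, mean 623 ± 84.6, SD, n = 2). The level of NPM1 was thus 3.57 times that of the next gene, a gap of more than the spread between replicates.

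Among the box C/D proteins, FBL encodes fibrillarin, the methyltransferase, and NOP56 and NOP58 encode the paired scaffold proteins that hold it on the RNA. FBL had 692 and 715 reads (509 and 473 CPM, mean 491 ± 25.1, SD, n = 2). NOP56 had 237 and 171 reads (174 and 113 CPM, mean 144 ± 43.2, SD, n = 2), and NOP58 had 136 and 110 reads (99.97 and 72.8 CPM, mean 86.4 ± 19.2, SD, n = 2). With all models counted, the methyltransferase mRNA was therefore the most read of the 3 in both replicates. It exceeded the least read by 5.09-fold in replicate 1 and 6.50-fold in replicate 2. With known models only, FBL had 102 and 63 reads and NOP56 had 91 and 65, so FBL led in replicate 1 only. NOP58 had 60 and 24 known reads.

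Among the box H/ACA proteins, DKC1 encodes dyskerin, the pseudouridine synthase, and NHP2, NOP10 and GAR1 encode the small proteins bound to it; the same proteins are part of telomerase. NHP2 had 519 and 504 reads (382 and 334 CPM, mean 358 ± 33.9, SD, n = 2), and NOP10 had 244 and 202 reads (179 and 134 CPM, mean 157 ± 32.3, SD, n = 2). DKC1 had 119 and 140 reads (87.5 and 92.7 CPM, mean 90.1 ± 3.66, SD, n = 2), and GAR1, the least read of all 9, had 71 and 67 reads (52.2 and 44.3 CPM, mean 48.3 ± 5.55, SD, n = 2). Here the enzyme was not the most read member: its mRNA stood below those of NHP2 and NOP10 in both replicates. Summed over their genes, the box C/D proteins reached 783 and 659 CPM (mean 721 ± 87.5, SD, n = 2) and the box H/ACA proteins 701 and 604 CPM (mean 652 ± 68.1, SD, n = 2). With all models counted, the box C/D sum was the higher in each library, and this difference was not tested. With known models only, the box H/ACA sum was the higher. The means were then 58.3, 55.0 and 30.0 CPM for FBL, NOP56 and NOP58. For NHP2, NOP10, DKC1 and GAR1 they were 301, 136, 22.6 and 3.12 CPM.

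From highest to lowest the order was NPM1, NCL, FBL, NHP2, NOP10, NOP56, DKC1, NOP58 and GAR1. NOP10 and NOP56 were not separated beyond their SD, nor were DKC1 and NOP58, although NOP10 was above NOP56 in each library; each other pair of neighbours differed by more than the larger SD of the pair. The order depends on which models are counted: with known models only, NPM1 stood at 959.6 CPM and NHP2, at 301 CPM, came next, while NCL was at 12.4 CPM and GAR1 at 3.12 CPM. The highest level exceeded the lowest by 46.3-fold in replicate 1 and 45.8-fold in replicate 2.

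**Figure D1:**
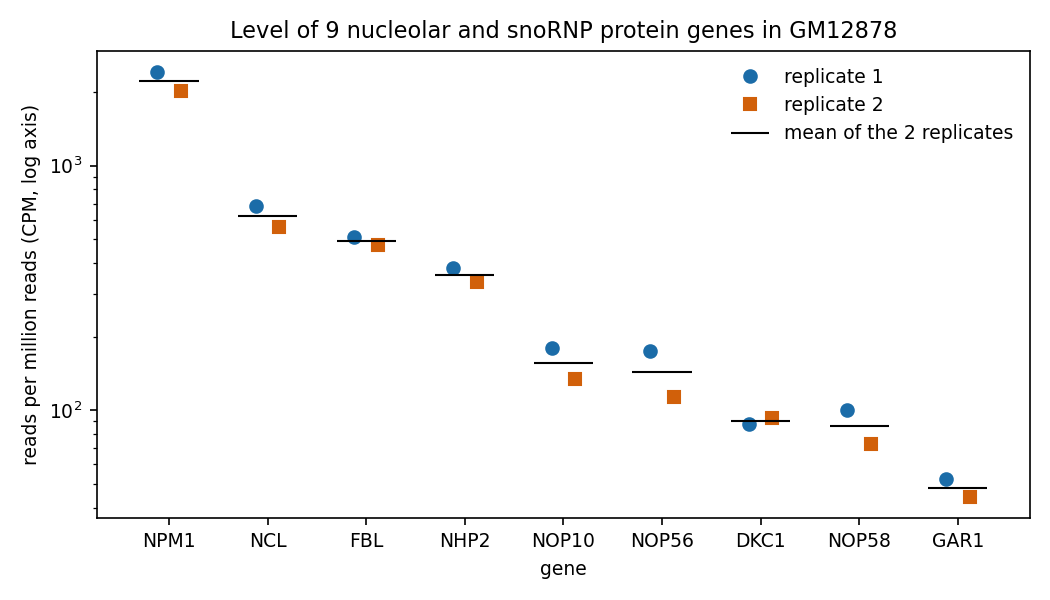
Level of each of the 9 genes in CPM (log axis) in replicate 1 (circles) and replicate 2 (squares), with the mean as a horizontal line. NPM1 lies at 2417 and 2030 CPM, GAR1 near 50, and replicate 2 lies below replicate 1 for every gene except DKC1.

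Several members had fewer reads in replicate 2 than the library totals would give. A two-sided exact binomial test of each gene's reads against the library totals, with Benjamini-Hochberg adjustment over the 10634 genes with at least 10 reads, called 4 of the 9 members, all of them lower in replicate 2, where 2.33% of all genes were called lower and 2.72% higher. NPM1 fell by 0.25 on the log2 scale (0.5 reads added to each count) at an adjusted p of 6.23e-10, and NCL fell by 0.28 at an adjusted p of 0.00219. NOP56 fell by 0.62 (adjusted p of 0.00085) and NOP10 fell by 0.42 (adjusted p of 0.0426). The member median was -0.25, against 0.01 over all genes tested, and 8 of the 9 log2 ratios were below 0. FBL (-0.10, adjusted p of 0.576), NHP2 (-0.19, 0.253), NOP58 (-0.46, 0.161), GAR1 (-0.23, 0.757) and DKC1 (0.08, 0.940) did not pass the test. With known models as the only ones counted, the call was lost for NCL (-0.78, adjusted p of 0.311), NOP56 (-0.35, 0.347) and NOP10 (-0.38, 0.0559) and gained for NOP58 (-1.17, 0.00456), and the ratio of DKC1 turned to -0.50 (0.379); the median of all genes then lay at -0.26. Of the 5528 genes tested with known models only, 718 were called lower and 324 higher. With no read minimum the adjusted p of NOP10 was 0.0665. With a minimum of 50 reads, 300 of 6105 genes tested were called lower and 287 higher, and the same 4 members were called.

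The same exact binomial test was read for other genes of these pathways, from lists chosen by function. Of 42 tested genes of snoRNP assembly, nucleolar ribosome assembly and RNA polymerase I, 2 were called lower and 0 higher, beside 2.33% lower and 2.72% higher over all genes tested, with a median log2 ratio of -0.12 (every value for replicate 2 against replicate 1). None of the RNA polymerase I list (10 tested, median 0.07) or of the snoRNP assembly list (14 tested, median -0.12) was called by the exact binomial test, and 0 genes of either list had an unadjusted p under 0.05. The called genes were both in the ribosome assembly list (18 tested, median -0.20). EBNA1BP2, a large-subunit assembly factor named for its binding to a viral protein, had 186 and 132 reads (log2 ratio -0.64, adjusted p of 0.00318). EMG1, a methyltransferase of the small-subunit RNA, had 175 and 133 reads (-0.55, 0.0236). The most read genes of the lists were NOP53, an assembly factor of the large subunit (359 and 406 CPM), SNU13, the box C/D protein that binds the RNA first (264 and 261 CPM), and RUVBL2, an ATPase of the snoRNP assembly machinery (182 and 180 CPM). With all models counted, SNU13, the remaining box C/D core protein, thus lay between FBL and NOP56 in level.

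How completely the reads matched the annotation differed widely among the members. Besides known models, the table distinguishes incomplete splice matches (ISM), in which some consecutive splice junctions of a known transcript are present, called suffix models when the 3′ end is kept; NIC and NNC models, with new combinations of annotated splice sites or at least 1 new site; and genomic models, placed in a gene although their structure follows none of its splicing patterns. The short genes were mostly known: NOP10 at 93.0% (95% Wilson interval 89.1 to 95.6%) in replicate 1 and 78.7% (72.6 to 83.8%) in replicate 2, and NHP2 at 90.4% and 77.4%. NPM1 stood at 50.5% (48.8 to 52.2%) and 34.4% (32.8 to 36.1%). NCL and GAR1 were at the other end, with 2.48% and 1.41% for NCL and 5.63% and 7.46% for GAR1. Intervals here cover counting error only.

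**Figure D2:**
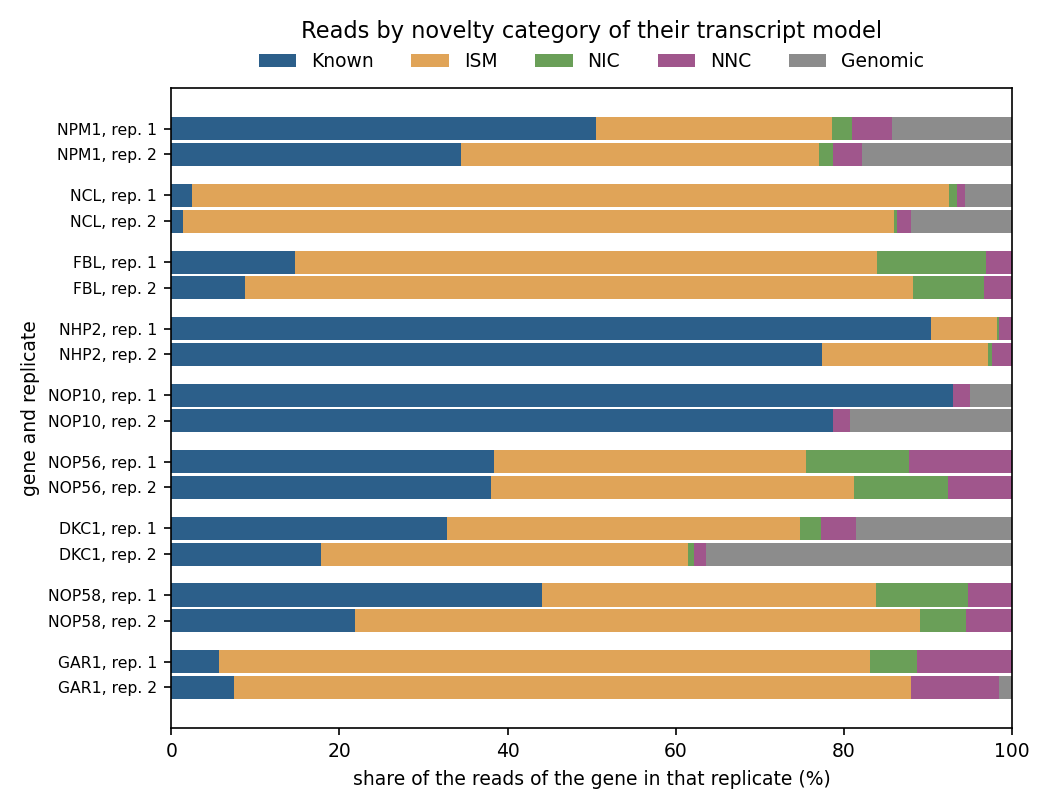
Share of each gene's reads (%) in each novelty category, with 1 bar per gene and replicate, genes ordered by level. NHP2 and NOP10 are mostly known, NCL, FBL and GAR1 mostly incomplete splice matches, and DKC1 has the largest genomic share, 18.5% and 36.4%.

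The known share was lower in replicate 2 for 8 of the 9 members. A two-sided Fisher's exact test of known against other reads, adjusted over the 8898 genes with at least 20 reads, called 6 members, all lower, beside 18.1% of all genes called lower and 0.202% called higher. NPM1 (adjusted p of 5.54e-36), NHP2 (4.35e-07), NOP10 (0.000203), NOP58 (44.1% to 21.8%, 0.00286), FBL (14.7% to 8.81%, 0.00611) and DKC1 (32.8% to 17.9%, 0.0371) fell. NCL (adjusted p of 0.348), NOP56 (38.4% and 38.0%, 1) and GAR1 (1) did not pass. The member median difference was -13.0 percentage points, against -7.13 over all genes tested. With a minimum of 100 reads, 1656 of 3879 genes tested were called lower and 20 higher, with a median of -9.95 points. The same 6 members were called in that setting, so the members lay nearer to genes with many reads than to all genes. Summed over annotated genes, the known share was 56.5% and 46.4%. In the pathway lists 13 of 41 tested genes were called lower in known share and 0 higher. Without genomic models the calls for NOP10 (-0.30 points, adjusted p of 1) and DKC1 (-12.1 points, 0.284) were lost, and with models of 2 or more exons only, those for NHP2 (-4.50 points, 0.078), NOP10 (-0.30 points, 1) and DKC1 (-12.1 points, 0.295) were lost.

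NOP10, NHP2 and DKC1 each had 1 much-read model of a single exon, as did NPM1, NCL and NOP56, whose models are given below. Across the members, single-exon models held a larger share in replicate 2 for 9 of 9 members, with Wilson intervals apart for 5. In all annotated genes together they also rose, from 22.2% to 28.5%, and how many of all genes had intervals apart was not counted. In NOP10, 1 genomic model of 393 bases, about as long as its 396-base last exon, had 12 and 39 reads (4.92% and 19.3% of the gene). In NHP2, 1 single-exon ISM model of 384 bases, beside a last exon of 379 bases, had 22 and 70 reads (4.24% and 13.9%). In DKC1, 1 genomic model of 1502 bases had 22 and 51 reads (18.5% and 36.4%). The table gives no ends for these models of NOP10, NHP2 and DKC1, so their place within the gene is not known from it.

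The full-length coding model was read at very different rates from gene to gene. For each gene this is the APPRIS-principal annotated transcript with reads (in GAR1, a pair of transcripts with the same coding length). It held 92.6% and 78.7% of the reads in NOP10 (2 exons, 554 bases), 87.3% and 74.0% in NHP2 (4 exons, 865 bases), 44.1% (60 of 136 reads) and a lower share (22 of 110 reads) in NOP58 (15 exons, 2046 bases) and 41.3% and 25.8% in NPM1 (11 exons, 1758 bases). It held 14.7% and 8.81% in FBL (9 exons, 1160 bases), 19.4% and 7.02% in NOP56 (12 exons, 2400 bases) and 16.8% and 3.57% in DKC1 (15 exons, 2577 bases). In GAR1 only 2 and 4 reads were of this kind (2.82% and 5.97%), and in NCL, whose annotated transcript is the longest at 4034 bases, 10 and 4 reads (1.08% and 0.470%). The share was lower in replicate 2 in 8 of 9 genes, with Wilson intervals apart in 7, the exceptions being NCL and GAR1. How many of all genes had such intervals apart was not counted. Over all annotated genes the known share also fell, from 56.5% to 46.4%. As a description over the 9 genes, which share 2 libraries, the length of the annotated transcript was set against the share of the full-length coding model. Spearman's rho was -0.58 in replicate 1 and -0.82 in replicate 2 (Pearson's r -0.64 and -0.68).

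**Figure D3:**
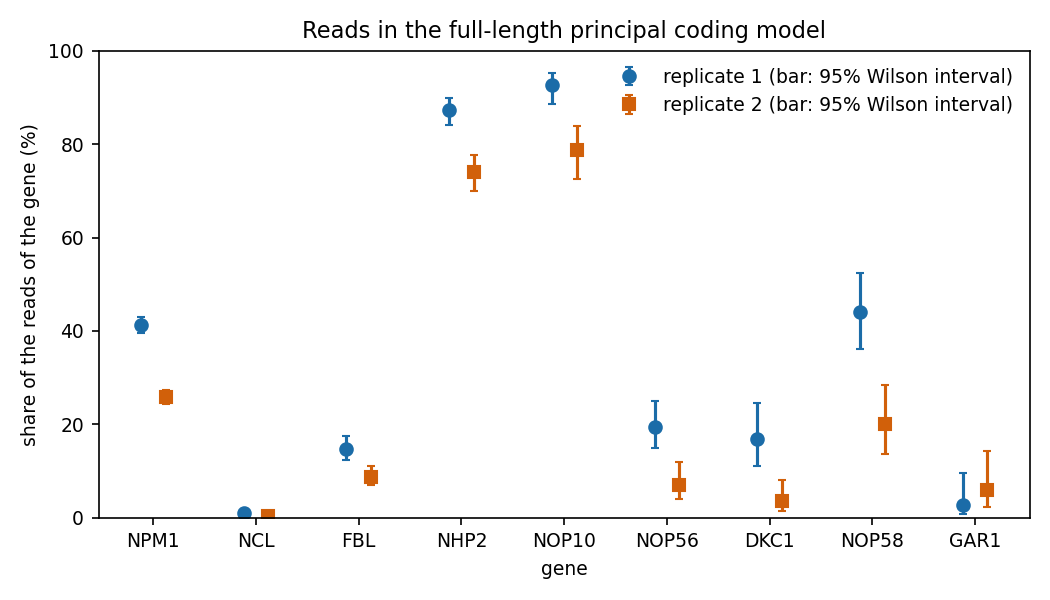
Share of each gene's reads (%) in its full-length principal coding model in replicate 1 (circles) and replicate 2 (squares), with 95% Wilson intervals as bars. NOP10 and NHP2 lie above 70% in both libraries, NCL and GAR1 below 10%, and replicate 2 is lower in every gene except GAR1.

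NPM1 had enough reads to follow its annotated isoforms. NPM1-201, of 294 amino acids, had 1357 and 792 reads. NPM1-203, of 259 amino acids, had 245 and 122; it leaves the other models after exon 9 and ends in its own last exon (chromosome 5, 171406397 to 171407125, GRCh38). NPM1-202, of 265 amino acids, had 14 and 13 reads and lacks the 87-base exon 8 of NPM1-201 (171400839 to 171400925). The junctions that tell these isoforms apart are printed here from the GENCODE 29 transcripts, with the upstream exon in lower case and the downstream exon in capitals:
NPM1-201, exon 9 to 10: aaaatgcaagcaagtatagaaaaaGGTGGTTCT
NPM1-203, exon 9 to 10: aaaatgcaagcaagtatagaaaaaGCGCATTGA
NPM1-201, exon 7 to 8: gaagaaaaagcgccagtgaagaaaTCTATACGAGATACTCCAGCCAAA
NPM1-202, exon 7 to 8: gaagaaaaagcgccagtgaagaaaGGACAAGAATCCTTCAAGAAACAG
After the first of these junctions NPM1-201 has 111 further coding bases, while NPM1-203 has 6 and then the stop codon TGA, the last capitals of its line. The segment lost in NPM1-203 is the carboxy-terminal end that carries the nucleolar localization signal. The 87 bases that NPM1-202 skips are a multiple of the codon length, so the reading frame is kept.

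Among reads of these 3 coding models, NPM1-201 led and NPM1-203 came next in both libraries. NPM1-201 held 84.0% (82.1 to 85.7%) and 85.4% (83.0 to 87.6%), NPM1-203 held 15.2% (13.5 to 17.0%) and 13.2% (11.1 to 15.5%), and NPM1-202 held 0.866% and 1.40%. The intervals of NPM1-201 and of NPM1-203 overlapped between replicates. Over all known reads of the gene, which include retained-intron models, NPM1-201 fell from 81.7% to 75%. NPM1-203 stood at 14.8% and 11.6% of known reads. NPM1-212, a retained-intron model of 2 exons and 640 bases, covers only the 3′ end of the gene. Its share was higher in replicate 2, with 32 and 112 reads (1.93% and 10.6% of known reads). Its only junction is also the exon 10 to 11 junction of NPM1-201. A 3′ fragment of NPM1-201 with those 2 exons would share it, and whether these reads are such fragments was not tested.

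**Figure D4:**
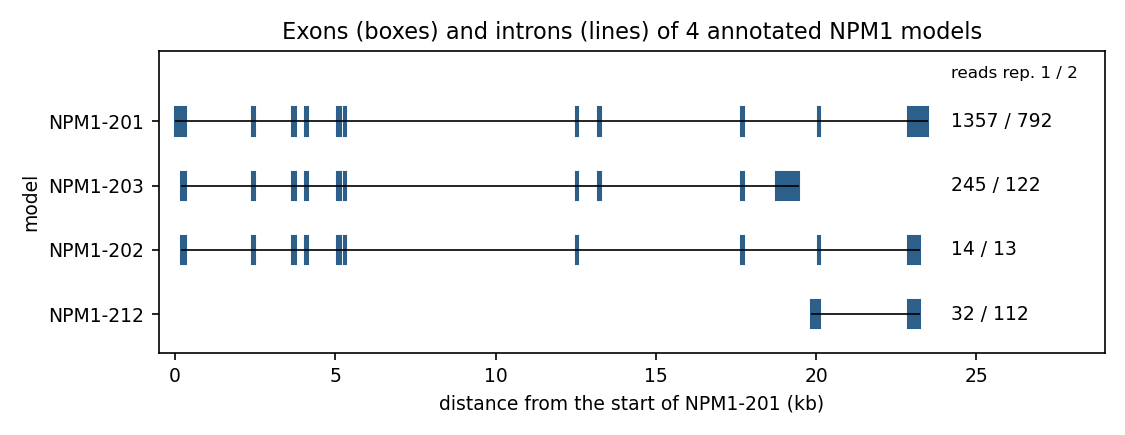
Exons (boxes) and introns (lines) of 4 annotated NPM1 models against the distance from the start of NPM1-201 in kb, with the reads of replicates 1 and 2 at the right. NPM1-203 ends in its own last exon, NPM1-202 lacks 1 exon, and NPM1-212, at 32 and 112 reads, covers the 3′ end only.

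The fall of NPM1-201 was called by the test of the top known model against the gene's other known models (two-sided Fisher's exact test, adjusted p of 0.000876). Of 3053 genes tested, with at least 20 known reads and at least 2 known models, 6.68% were called lower in replicate 2 and 0.884% higher. Among the 7 members tested, 2 were called, NPM1 and NOP56; FBL has 1 known model and GAR1 had 9 known reads, so neither was tested. NOP56-201 fell from 50.5% to 18.5% of the known reads of its gene (46 of 91 and 12 of 65 reads, adjusted p of 0.00131). The median difference of the 7 members was -0.95 percentage points, against -3.33 over all genes tested. With a minimum of 100 known reads, 190 of 1215 genes tested were called lower and 21 higher. In that setting 2 of 4 members were called. When ISM, NIC and NNC models were counted too, NOP58 (-24.1 points, adjusted p of 0.000897) and NHP2 (-13.3 points, 2.20e-06) were also called. In that setting 4 of 9 members were called, all lower, beside 1053 lower and 288 higher of the 6741 genes tested.

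Outside the known models, the NPM1 reads lay mostly in a few large models. A genomic model of 1 exon and 1820 bases had 466 and 545 reads (14.2% and 17.8% of the gene). The most read ISM models were suffixes of 8 exons (282 and 256 reads) and 7 exons (136 and 254 reads). By contrast the most read NIC model (15 and 4 reads) and NNC model (40 and 33 reads) were small. Over the full-length model and the suffix models together, reads with 11 exons made up 61.1% in replicate 1 and 39.2% in replicate 2, and the median number of exons was 11 and 8.

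Processed pseudogenes, intronless copies of an mRNA elsewhere in the genome, limit how exactly NPM1 can be counted. The annotation has 45 NPM1 pseudogenes, of which 4 had reads, 33 and 80 in all, equal to 1.004% and 2.61% of the NPM1 reads. NPM1P6 had 20 and 64 reads (log2 ratio 1.502, adjusted p of 0.000807), opposite in direction to NPM1. NPM1P27 had 8 and 13 reads (adjusted p of 0.876) and NPM1P25 had 4 and 2. Of the other members, NHP2P1 had 1 and 5 reads, and the annotated pseudogenes of NCL (2) and NOP56 (3) had none. Whether reads were exchanged between NPM1 and its copies was not tested; with the pseudogene reads added, an alternative chosen after seeing the data, NPM1 still fell, by 0.23 at an adjusted p of 2.72e-08.

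NCL was the opposite case, a highly read gene with almost no full-length read. ISM models held 90.1% and 84.6% of its reads. A single suffix model of 2 exons and 1432 bases had 288 and 288 reads, 31.0% (28.1 to 34.0%) and 33.8% (30.7 to 37.1%) of the gene; the last 2 exons of NCL-201 measure 1961 bases. A prefix model, which keeps the 5′ end, of 3 exons and 639 bases had 123 and 57 reads, and prefix models together held 15.5% (13.3 to 18.0%) and 7.64% (6.04 to 9.62%). A suffix model of 12 exons had 77 and 33 reads, and genomic models held 5.60% and 11.99%, nearly all of them in 1 model of 1 exon and 1378 bases (50 and 98 reads). The known models with most reads were NCL-201 and the retained-intron model NCL-209 (9 and 6 reads), which joins part of the first exon to a second exon extended into the following intron; NCL-208 had 2 and 2.

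The most read FBL models were 1 or 2 exons short of the annotated transcript. ISM models held 69.2% and 79.4%, led by a suffix of 8 exons and 971 bases (175 and 169 reads) and one of 7 exons and 865 bases (156 and 169 reads). FBL-201, of 9 exons and 321 amino acids, had 102 and 63 reads and is the only known FBL model read. A NIC model of 8 exons and 968 bases had 45 and 32 reads, and NIC models together held 13.0% (10.7 to 15.7%) and 8.39% (6.57 to 10.7%). The most read NNC model had 4 and 7 reads.

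**Figure D5:**
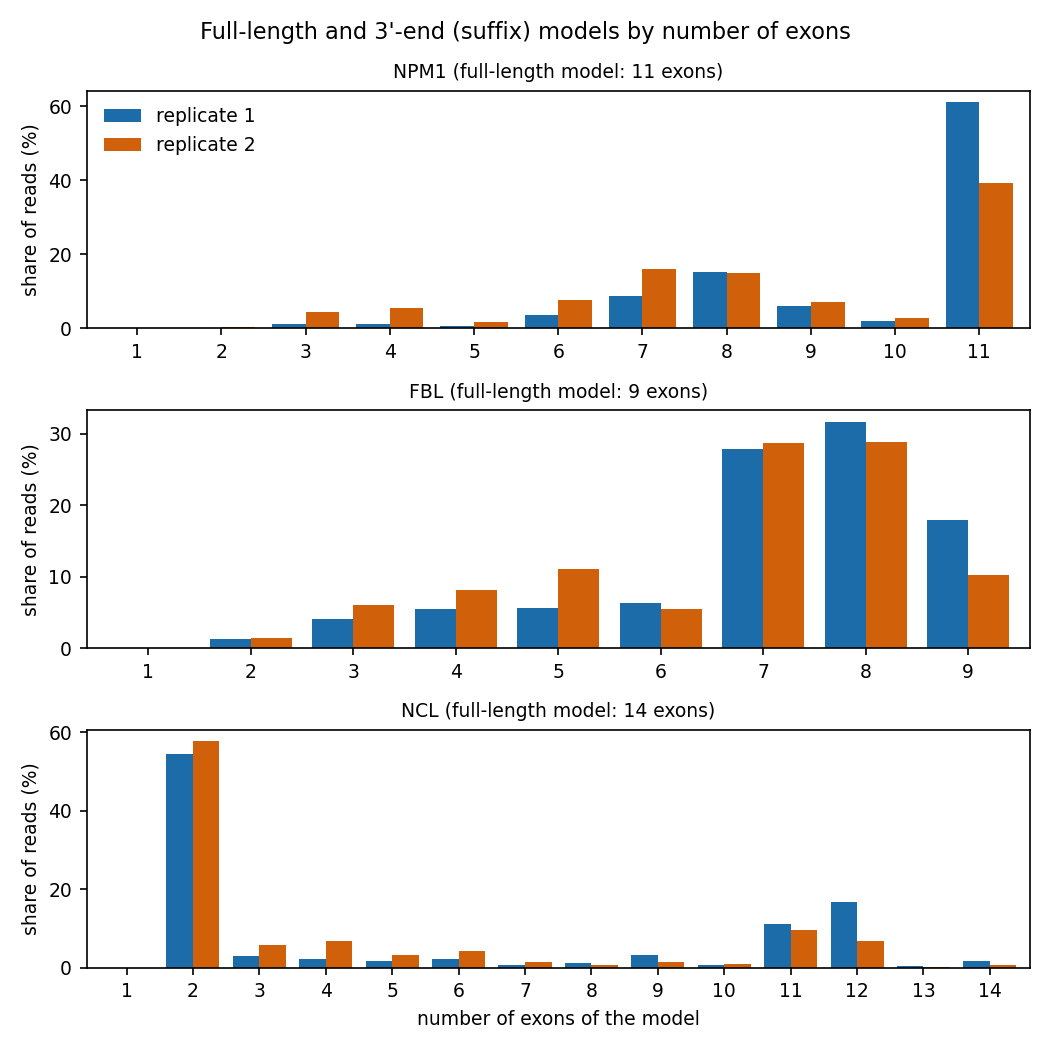
Share of reads (%) by the number of exons of the model, over the full-length principal model and 3′-end (suffix) models of NPM1, FBL and NCL, in replicate 1 (blue) and replicate 2 (orange). NPM1 peaks at all 11 exons (61.1% and 39.2%), FBL at 7 and 8 of 9, and NCL at 2 of 14 (54.4% and 57.7%).

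Counted in the same way, the members differed in how many of the exons their reads kept. Models with at least 50% of the exon number of the full-length transcript held 96.7% and 88.0% of the full-length and suffix reads in NPM1. The values were 89.3% and 84.4% in FBL, 73.1% and 70.9% in NOP56 and 74.5% and 57.8% in NOP58. Such models held 36.3% and 22.4% in NCL, 39.5% and 40.4% in GAR1 and 39.4% and 23.0% in DKC1. Spliced models of NCL averaged 1313 and 1221 bases per read, 32.6% and 30.3% of the length of NCL-201. Those of NOP10 averaged 552 and 553 bases, 99.7% and 99.8% of NOP10-201. The NOP10 value is no measure of how complete its reads were. NOP10-201 has 2 exons, and all single-exon reads of NOP10 (12 and 39) were genomic and left out of this average. The length of a model is that of its representative in the table, not of each read.

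NOP56 had many models with few reads each: 63 ISM, 39 NIC and 17 NNC models for 237 and 171 reads. Of these, 14 ISM, 2 NIC and 4 NNC models were seen in both libraries. NOP56-201, of 594 amino acids, had 46 and 12 reads. NOP56-219, a retained-intron model of 1 exon (chromosome 20, 2655413 to 2658392), had 21 and 28 reads and was the most read model of the gene in replicate 2; its interval spans the genes of the box C/D RNAs SNORD86, SNORD56 and SNORD57. The processed transcript NOP56-205 had 9 and 8 reads, and the most read ISM, NIC and NNC models had 11 and 5, 5 and 0, and 5 and 5. The known share of NOP56 was thus 38.4% and 38.0%, while its full-length model held 19.4% (14.9 to 24.9%) and then 7.02% (4.06 to 11.9%).

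In NOP58, by contrast, the full-length NOP58-201 made up 60 of 60 known reads in replicate 1 and 22 of 24 in replicate 2. ISM models held 39.7% and 67.3%, led by a suffix of 8 exons with 8 and 11 reads. The most read NIC model had 2 and 0 reads, and the most read NNC model 0 and 2.

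In NHP2 and NOP10 the full-length model held most reads. NHP2-201, of 153 amino acids, had 453 and 373 reads, and NHP2-202, of 90 amino acids, which skips the 106-base exon 3 (chromosome 5, 178150888 to 178150993), had 14 and 14. The junctions that separate them are:
NHP2-201, exon 2 to 3: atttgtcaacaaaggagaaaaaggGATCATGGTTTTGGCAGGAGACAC
NHP2-202, exon 2 to 3: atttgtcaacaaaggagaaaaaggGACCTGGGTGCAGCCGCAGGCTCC
Capitals again mark the downstream exon. The 106 bases are not a multiple of the codon length, and NHP2-202 has 40 coding bases after this junction, against 229 in NHP2-201. It held 3.00% (1.79 to 4.97%) and 3.62% (2.17 to 5.98%) of the reads of both models, with overlapping intervals. NHP2-205 had 1 and 2 reads. The 3′ end of NHP2 overlaps RMND5B, on the opposite strand, which had 41 and 51 reads. NOP10-201, of 64 amino acids, had 226 and 159 reads, NOP10-202 had 1 and 0, and no NOP10 read was an ISM or NIC model; its most read NNC model had 5 and 3.

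GAR1 and DKC1 had few reads and mostly partial ones. In GAR1, a suffix model of 3 exons and 531 bases was the most read, with 21 and 20 reads (29.6% and 29.9%). GAR1-201 had 2 and 3 reads, GAR1-204 had 2 and 1 and GAR1-202 had 0 and 1, and the most read NIC and NNC models had 2 and 0 and 1 and 1. In DKC1, the full-length DKC1-201, of 514 amino acids, had 20 and 5 reads, while DKC1-212, a processed transcript of 3 exons and 406 bases, had 19 and 19. DKC1-212 held 48.7% and 76.0% of the known reads (adjusted p of 0.246). Its junctions are also the last ones of DKC1-201. A 3′ fragment of DKC1-201 with its last 3 exons would share them, and whether these reads are such fragments was not tested. DKC1-213 had 0 and 1 read, and the most read NIC and NNC models of DKC1 each had 1 and 0.

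As annotated, DKC1-212 starts at position 154775119 of chromosome X (GRCh38), within the last bases of the box H/ACA RNA gene SNORA56, which ends at 154775126. Where the reads assigned to DKC1-212 start is not known. A suffix model of DKC1 with 2 exons and 2613 bases had 17 and 22 reads and was longer than the last 2 exons of DKC1-201, which measure 1029 bases. Where its ends lie is not in the table.

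The small nucleolar RNAs encoded inside these genes were hardly seen as molecules of their own. The annotation places 14 snoRNA genes on the same strand within members, 3 in NCL, 5 in NOP56, 4 in NOP58 and 2 in DKC1. Of these, 2 had any read, both in NOP56: SNORD110 with 1 and 1, and SNORA51 with 0 and 3. These counts are at or below the floor of 3 reads, so no level or difference is given for them. Whether the libraries capture RNAs this small was not tested, so few reads need not mean few molecules.

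The members lie on several chromosomes (GRCh38, GENCODE 29). NPM1 (ENSG00000181163.13) is at chr5:171387116-171411137 on the plus strand and NHP2 (ENSG00000145912.8) at chr5:178149460-178153967 on the minus strand. NCL (ENSG00000115053.15) is at chr2:231453531-231483641, minus, and NOP58 (ENSG00000055044.10) at chr2:202265716-202303666, plus. FBL (ENSG00000105202.8) is at chr19:39834458-39846414, minus, NOP56 (ENSG00000101361.16) at chr20:2652145-2658393, plus, and NOP10 (ENSG00000182117.5) at chr15:34341713-34343177, minus. GAR1 (ENSG00000109534.16) is at chr4:109815510-109824740, plus, and DKC1 (ENSG00000130826.17) at chrX:154762742-154777689, plus.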

How the data were processed

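Per the labels' protocols, direct RNA libraries of GM12878 were made from depleted RNA with a reverse transcription step; the submitters' processing notes name minimap2 and the build hg38, and the table's name shows the program TALON, which assigns long reads to transcript models. Read filters and versions are not given in the sources used here. The deposited table gives unnormalized counts of reads for each transcript model in either replicate and, as other properties deposited by the authors, the number of exons and the length of the model in bases. All 36 known member models matched GENCODE release 29 in identifier, length and exons, so positions, transcript types and sequences come from it.

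Columns were matched to samples by title, and gene counts are sums over all models of a gene. With 1 group of 2 libraries, edgeR's test has no residual degrees of freedom; the exact binomial and Fisher tests in SciPy 1.17.1 (pandas 2.3.3, NumPy 2.4.6, Python 3.11.15) compare the reads of the libraries, adjusted by Benjamini-Hochberg over all genes with a threshold of 0.05. Wilson intervals are 95%. The tests were checked on simulated data. Alternatives covered scaling (edgeR 4.0.16 TMM and DESeq2 1.42.0 size factors, R 4.3.3), the models counted and the read minimums. The members, gene lists and the rule for named models (the 3 most read known models and the most read ISM, NIC and NNC model per gene, the 3 most read pseudogenes, and of the pathway lists the 3 most read genes and those called) were chosen with earlier results of these data known.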

Additional observations from a re-analysis of the deposited data

How the results depend on the processing

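Of 46 alternative values of the main results, 36 stayed close to the value reported and 10 moved. Close meant within a fixed ratio for counts of calls and within the SD of the 2 replicates for the other values. By that rule a value with 1 replicate left out always counts as close. Such values among the 36 could not have moved and do not show stability. The number of genes tested changed with the setting too. Between the libraries, 537 of 10634 genes were called (289 higher, 248 lower). Counting known models only, 1042 of 5528 were called (324 higher, 718 lower). Members called went from 4 of 9 to 2 of 8. The summed level fell from 4220 to 1578 CPM, and the median model length rose from 1267 to 1340 bases. With models of 2 or more exons, the genes called for the known share went from 1631 of 8898 to 927 of 6216. Members called went from 6 to 3 of 9. Counting ISM, NIC and NNC models beside known ones, the genes called for the top model went from 231 of 3053 to 1341 of 6741. Members called went from 2 of 7 to 4 of 9. The median top model share fell from 78.9% to 31.6%, and models with at least 10 reads gave 88.6%. DKC1's log2 ratio of 0.08 reversed to -0.50 with known models only and to -0.20 without genomic models, and the NOP56 known share difference of -0.38 points reversed to 1.15 with models of at least 5 reads; none of these passed its test. The cause was not tested for any of these shifts. The calls of members lost or gained stand beside each gene above. Under TMM and DESeq2 scaling the genes called were 546 and 541, with 4 members each. Leaving out 1 replicate gave a summed level from 3856 to 4583 CPM, a median known share from 21.8 to 38.4%, a median top known model share from 76.0 to 81.7% and a median model length from 1221 to 1313 bases. No paired analysis was possible because the series has only 1 group. The depth limits GAR1, with 71 and 67 reads, and the rarer models, for which a difference was not detectable.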
